A study of Macaca mulatta with 24 samples.

Results

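GDF15 (growth differentiation factor 15, gene 719466 on chromosome 19) was followed across irradiated and unirradiated rhesus macaque ileum. Its members were all probes that the deposited table of normalized signals names GDF15, which gave 1 gene of the 16094 gene symbols in that table, read by 1 probe with 1 spot on each array. Whole ileum came from 24 young-adult male Rhesus macaque animals, with 1 Agilent single-color array for each animal and no pooling. The 4 controls were sham-irradiated, and the other 20 animals received a single uniform total-body irradiation (TBI) with cobalt-60 gamma rays. Ileum of 4 animals each was taken on days 4 and 7 and of 2 animals on day 12 after 6.7-Gy TBI, and the same numbers were used at 7.4 Gy. The same controls, labelled day 4, served for every day and both doses, so a change on day 7 or day 12 has no control of its own day.

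GDF15 is a secreted protein of the TGF-β superfamily that is low in most healthy tissues and rises under cell stress. p53 acts directly on the gene after DNA damage, and ATF4 and CHOP (encoded by DDIT3) act on it in the integrated stress response, the program that follows amino acid shortage, misfolded protein or mitochondrial failure. The precursor is cut by furin-like proteases before secretion. Circulating GDF15 is read by GFRAL, a receptor of the hindbrain that signals through RET and reduces food intake, and the gut epithelium is a known source of the cytokine.

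All GDF15 values below are signals on the log2 scale, where 0 is the 75th percentile of the array (between 837.3 and 1330 intensity units). The GDF15 probe was well above background on all 24 arrays and was saturated on none. GDF15 was selected on these same signals, chosen by its differences between the groups, so its levels are given as a description with no test.

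In unirradiated ileum the GDF15 signals of the 4 controls were -0.27, -0.30, -0.23 and 0.08, a mean of -0.18 ± 0.18 (SD, n = 4). The controls lay close together, near the 75th percentile of their arrays.

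The day 4 animals of the 6.7-Gy dose had signals of 3.87, 3.71, 2.84 and 4.18, a mean of 3.65 ± 0.58 (SD, n = 4). This was a log2 change of 3.83 from the controls (standard error 0.35), or 14.2-fold. The day 4 animals of the 7.4-Gy dose had signals of 4.15, 4.09, 4.65 and 3.33, with a mean of 4.06 ± 0.54 (SD, n = 4), a log2 change of 4.23 (standard error 0.35) or 18.8-fold. The lowest day 4 animal, at 2.84, was far above the highest control, at 0.08, and the 2 doses overlapped. Among the 36110 tested probes, the rise of GDF15 had rank 6 after the lower dose and rank 7 after the higher dose.

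By day 7 the signals were lower than on day 4 and still above the controls. After 6.7-Gy TBI they were 1.41, 1.42, 1.88 and 1.23 (mean 1.48 ± 0.28, SD, n = 4), 3.17-fold above the controls with a log2 change of 1.66. After 7.4-Gy TBI they were 2.15, 2.14, 0.79 and 1.84 (mean 1.73 ± 0.65, SD, n = 4), 3.75-fold above the controls with a log2 change of 1.91. Replicate 3 of the higher dose was the lowest irradiated animal of the whole series, and the other 7 animals of day 7 lay between 1.23 and 2.15. Day 7 minus day 4 was -2.16 at 6.7 Gy and -2.33 at 7.4 Gy (log2 difference, standard error 0.35 for both), and at each dose the highest animal of day 7 was below the lowest of day 4.

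On day 12 the 2 animals after 6.7-Gy TBI had signals of 1.36 and 2.89, and the 2 animals after 7.4-Gy TBI had 0.97 and 0.99. The log2 changes from the controls were 2.30 (4.93-fold) and 1.15 (2.23-fold), both with a standard error of 0.43. The mean after the lower dose was set largely by 1 animal: without replicate 2 the change was 1.54, and without replicate 1 it was 3.07. The higher dose minus the lower dose was 0.41 on day 4 and 0.25 on day 7 (standard error 0.35), and -1.15 on day 12 (standard error 0.49).

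Ordered by mean, GDF15 was highest on day 4 after 7.4 Gy, followed by day 4 after 6.7 Gy, day 12 after 6.7 Gy, day 7 after 7.4 Gy, day 7 after 6.7 Gy, day 12 after 7.4 Gy and the controls. Neighbouring groups in that order overlapped in their animals, except that day 12 after 7.4 Gy lay below all animals of day 7 after 6.7 Gy and above all controls. All 20 irradiated animals were above all 4 controls.

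**Figure D1:**
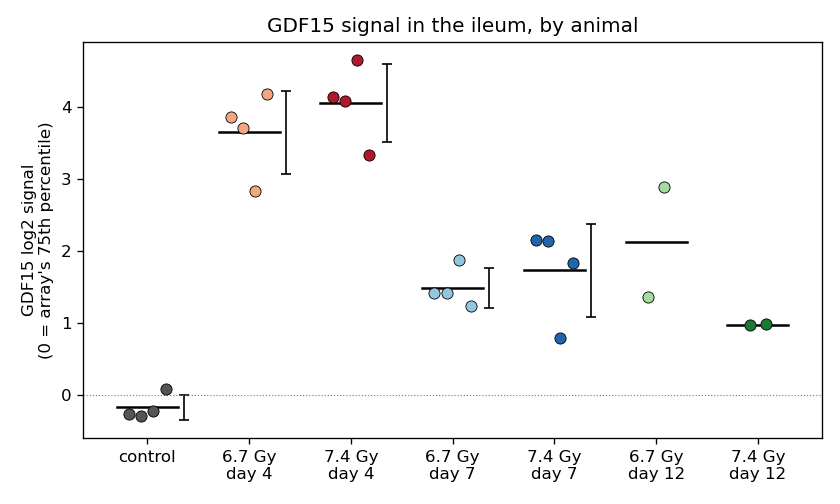
GDF15 log2 signal (y axis, 0 is the array's 75th percentile) in each animal (points) of the 7 groups (x axis), with the group mean as a line and, beside groups of 4 animals, a bar of ± 1 SD. The controls lie between -0.30 and 0.08, the day 4 animals between 2.84 and 4.65, and all animals of days 7 and 12 between these 2 levels, except that 1 animal of day 12 after 6.7 Gy reaches 2.89, above the lowest day 4 animal.

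The place of an array on its slide went with the group. All controls were in position 1, day 4 after 7.4 Gy was in position 2, day 7 after 6.7 Gy in position 3 and day 12 in position 4, so that for these groups position and irradiation cannot be told apart. Of the 4 arrays of day 4 after 6.7 Gy, 2 shared position 1 with the controls. Those 2 animals had a mean GDF15 signal of 3.79 against -0.18 in the controls, a log2 difference of 3.97. Each of the 4 controls also shared its slide with irradiated animals, and within a slide every irradiated animal exceeded the control, by 3.10 to 4.48 on day 4, by 1.06 to 2.14 on day 7 and by 1.59 and 2.81 on day 12 after 6.7 Gy. No slide with a control held an array of day 12 after 7.4 Gy.

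Whole ileum was measured, so more cells that express a gene and more RNA in each cell cannot be told apart. Of the enterocyte markers 7 had a probe and were tested. VIL1 and ANPEP were well above background in all controls, with mean log2 signals of 3.81 and 6.43, while FABP2 was above background in 1 of 4 controls. The summed linear signal of the 7, in units of the array's 75th percentile, was 488 to 664 in the controls and 412 to 773 in the irradiated animals other than replicate 4 of day 4 after 6.7 Gy. In that replicate the sum was 155, its summed goblet cell signal was 134 (controls 354 to 412) and its summed neutrophil marker signal was 6.96 (at most 0.914 on the other 23 arrays). The same animal had the highest GDF15 signal of its group, 4.18. Without it the GDF15 change of its group was 3.65. A gene is called altered here when its adjusted p from limma (Benjamini-Hochberg over all 36110 probes) was under 0.05 and its change was 2-fold or more. After 6.7 Gy 0.978% of all tested probes were called on day 4, 0.235% on day 7 and 0.108% on day 12, and after 7.4 Gy 2.33%, 0.568% and 0.0443%. VIL1, a protein of the enterocyte brush border, fell on day 4 at both doses (-1.32, adjusted p = 0.0011, and -1.27, adjusted p = 8.5e-04), and LCT, the lactase gene, rose after 7.4 Gy (1.94, adjusted p = 0.024). Of 3 tested red blood cell markers, 2 were called lower on days 4 and 7 at both doses and on day 12 after 6.7 Gy. Their sum was 3.38 to 12.4 in the controls, at most 0.964 on days 4 and 7, and 1.03 to 2.59 on day 12, below every control in all 6 groups. Macrophage markers summed to 40.6 to 53.1 in the controls and to 55.5 to 68.0 on day 4 after 7.4 Gy, with 1 of 5 called. On day 4, 2 of 4 goblet cell markers and 1 of 4 B cell markers were lower at both doses, and on day 4 after 7.4 Gy 3 of 7 fibroblast markers, 2 of 5 markers of enteric neurons and glia, 1 of 7 enteroendocrine markers (CHGB) and 1 of 5 endothelial markers (VWF) were higher. The summed crypt stem and progenitor signal was 1.89 to 2.04 in the controls, and it lay above every control on day 4 (2.43 to 4.84 after 6.7 Gy and 2.80 to 2.96 after 7.4 Gy) and on day 7 after 6.7 Gy (2.47 to 3.00). In these groups limma called 0 of its 5 tested markers, with 2 in each at an unadjusted p under 0.05, where 22.9%, 23.6% and 9.36% of all probes had one. RGMB had the highest control signal of the 5 (0.59), and LGR5, the stem cell receptor, changed by -0.03, 0.09 and 0.08. OLFM4, another of the 5, changed by 2.69, 2.93 and 3.60 (adjusted p = 0.24, 0.19 and 0.35). Its signal was above background in 1 of 4 controls, and its animals of day 4 after 6.7 Gy spread widely (SD 4.05). On day 7 after 7.4 Gy 1 of 4 B cell markers and 1 of 6 plasma cell markers were lower, where 0.454% of all probes were lower. The summed T cell signal was 17.5 to 25.7 in the controls. It lay below every control on day 7 (12.5 to 15.2 after 6.7 Gy and 11.4 to 15.03 after 7.4 Gy). On day 12 after 6.7 Gy it was also below them (15.7 to 17.3), and in the other groups it overlapped them. On day 7 limma gave 7 of 7 and 6 of 7 T cell markers an unadjusted p under 0.05 (all probes 9.36% and 13.4%). Of these, 0 passed 2-fold. The summed signal of proliferating cell markers was 12.0 to 14.7 in the controls. On day 7 it was above every control, at 18.9 to 22.5 after 6.7 Gy and 15.5 to 23.3 after 7.4 Gy. There limma called 0 of 6 markers, with 3 and 2 at an unadjusted p under 0.05, where 9.36% and 13.4% of all probes had one. On day 4 these counts were 4 and 1, where 22.9% and 23.6% of all probes had one, and the sums overlapped the controls (11.2 to 36.1 and 12.4 to 19.7). The part of these shifts in the GDF15 signal was not tested.

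**Figure D2:**
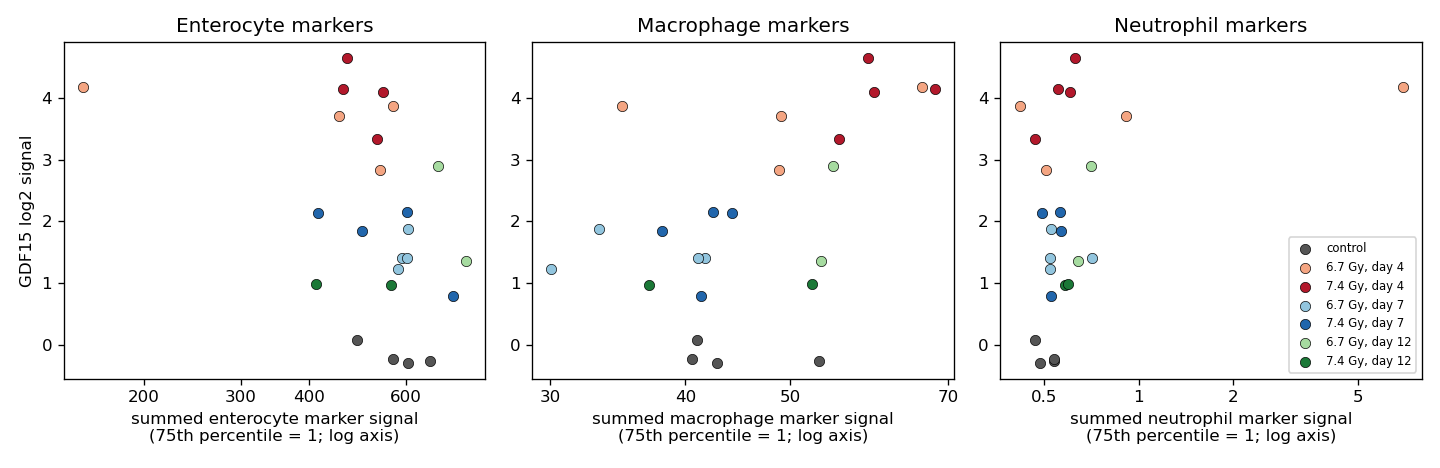
GDF15 log2 signal (y axis) against the summed linear signal of enterocyte, macrophage and neutrophil markers (x axes, logarithmic, in units of the array's 75th percentile), with 1 point for each of the 24 animals, coloured by group. Replicate 4 of day 4 after 6.7 Gy stands apart at an enterocyte sum of 155 and a neutrophil sum of 6.96, and the other day 4 animals have high GDF15 at enterocyte sums of 452 to 569.

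p53 targets were examined because p53 acts on GDF15. Of 35 listed targets, 27 had a named probe and 26 were tested. Of the 26, 7 rose and 0 fell on day 4 at 6.7 Gy, where 0.978% of all tested probes were called (0.595% higher and 0.382% lower). At 7.4 Gy 7 rose and 1 fell, where 2.33% were called (1.6% higher and 0.734% lower). The list had a median log2 change of 0.28 and 0.41, beside -0.10 and -0.07 over all tested probes, and 19 of 26 genes had a positive change at either dose. These comparisons share their controls. The methods' t-test after adjustment called 0 of the 26 at 6.7 Gy and 7 at 7.4 Gy.

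EDA2R, a receptor of the TNF receptor family, had the largest rise of the list. Control animals had EDA2R signals of -3.69, -2.63, -2.39 and -2.53, and day 4 animals had 0.82, 1.14, 0.54 and -0.25 after 6.7 Gy and 1.22, 0.46, 0.89 and 0.77 after 7.4 Gy. The log2 change was 3.37 (adjusted p = 2.2e-06) and 3.65 (adjusted p = 3.1e-07), with no overlap of irradiated animals and controls. DDB2, which recognizes ultraviolet-type DNA damage, rose by 2.31 and 2.52 (adjusted p = 5.0e-06 and 1.0e-06). PLK2, a kinase of the DNA damage checkpoint, rose by 2.01 and 1.99 (adjusted p = 7.8e-05 and 6.6e-05). ZMAT3, a p53-induced RNA-binding protein, rose by 1.75 and 1.90 (adjusted p = 2.2e-06 and 3.1e-07). The smaller rises were those of RPS27L (1.46 and 1.73), BAX (1.05 and 1.06), which permeabilizes mitochondria in apoptosis, and the death receptor FAS (1.04 and 1.101). The other probes of BAX changed by at least 0.80 and the other probe of FAS by 0.86 at the higher dose, none of them past the fold limit. TRIM22, an interferon-induced antiviral gene, was the member that fell after 7.4 Gy (-2.89, adjusted p = 0.032), but its probes disagreed, the others changing by 0.99 and 1.13, the latter called as higher.

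CDKN1A and MDM2, the best known p53 targets of cell cycle arrest and of p53 turnover, were not called by the probe that stands for each gene, the brightest one. CDKN1A had control signals of 4.71, 3.68, 3.94 and 3.48, and day 4 signals of 4.98, 4.64, 4.37 and 4.54 after 6.7 Gy and, after 7.4 Gy, from 4.18 to 4.84, a log2 change of 0.68 (adjusted p = 0.10) and 0.54 (adjusted p = 0.17). Control replicate 1 was at the level of the irradiated animals. The 2 probes of MDM2 disagreed. The brighter one changed by 0.11 and 0.31 (adjusted p = 0.74 and 0.32). The dimmer one rose from between -3.16 and -3.01 in the controls to between -1.56 and -0.81 after 6.7 Gy and between -1.14 and -0.77 after 7.4 Gy, a log2 change of 1.85 (adjusted p = 2.2e-06) and 2.08 (adjusted p = 3.1e-07). Which transcripts each MDM2 probe reads was not examined.

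On day 7, EDA2R and DDB2 were the p53 targets called, both higher: 2 of 26 at each dose, where 0.235% of all tested probes were called at 6.7 Gy (0.0526% higher and 0.183% lower) and 0.568% at 7.4 Gy (0.114% higher and 0.454% lower). With array position in the fit, and with the methods' t-test after adjustment, 0 were called at either dose, and at 6.7 Gy 1 was called without control replicate 1 or without replicate 1 or 4 of that group. EDA2R rose by 2.28 (adjusted p = 9.2e-04) and 2.73 (adjusted p = 6.5e-05) and DDB2 by 1.19 (adjusted p = 0.014) and 1.53 (adjusted p = 0.0014). The change of GDF15 from the controls, 1.66 and 1.91, was then smaller than that of EDA2R at both doses, whereas on day 4 it was larger, and the difference between the genes was not tested. On day 12 limma called 0 of the 26 after either dose, where 0.108% and 0.0443% of all probes were called, and 5 and 7 of 26 had an unadjusted p under 0.05, of which 1 in each group also passed 2-fold. Over all tested probes 8.98% and 8.13% had an unadjusted p under 0.05 in these groups, beside 9.36% and 13.4% on day 7 and 22.9% and 23.6% on day 4 (6.7 and 7.4 Gy). The GDF15 change of 2.30 on day 12 after 6.7 Gy thus stood beside a list median of 0.02.

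The direct comparison of day 7 with day 4 does not involve the controls. At 6.7 Gy, 0.354% of all tested probes were called (0.244% higher and 0.111% lower) and PLK2 (-1.56, adjusted p = 0.0053) and DDB2 (-1.11, adjusted p = 0.023) were the p53 targets that fell. At 7.4 Gy, 0.942% were called (0.593% higher and 0.349% lower) and PLK2 (-1.45, adjusted p = 0.0031), GADD45A (-1.11, adjusted p = 0.0087) and ZMAT3 (-1.01, adjusted p = 0.0015) fell. No p53 target rose at either dose. The second, dimmer probes of DDB2 (-1.15, adjusted p = 0.011) and MDM2 (-1.25, adjusted p = 7.2e-04) were also called lower at 7.4 Gy, where the brighter ones were not. The list medians were -0.30 and -0.42, beside 0.07 and 0.01 over all tested probes.

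**Figure D3:**
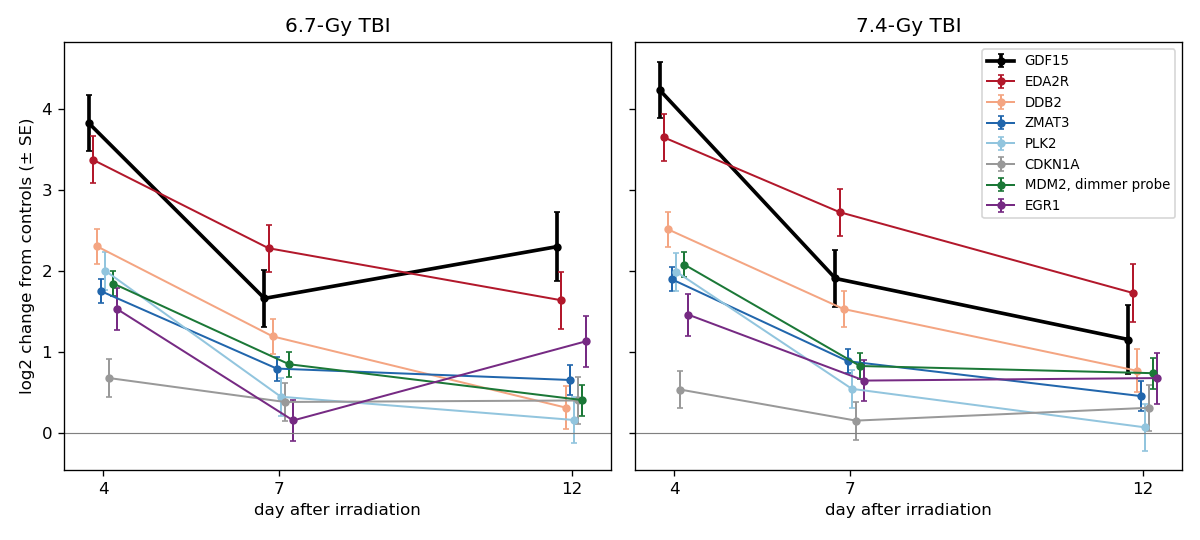
Log2 change from the controls (y axis, bars are ± 1 standard error) on days 4, 7 and 12 (x axis) after 6.7-Gy TBI (left) and 7.4-Gy TBI (right) for GDF15, 5 p53 targets, the dimmer MDM2 probe and EGR1, drawn slightly apart at each day. GDF15 has the largest change on day 4 (3.83 and 4.23), lies below EDA2R on day 7, and is above EDA2R again on day 12 after 6.7 Gy (2.30) but not after 7.4 Gy (1.15); the groups of day 12 hold 2 animals each.

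The integrated stress response is the other known input to GDF15. Of its 35 listed genes 29 had a probe and 28 were tested. On day 4 after 6.7 Gy 1 gene was called (3.57%), and it was lower, where 0.978% of all tested probes were called and 0.382% were lower. After 7.4 Gy 1 was higher and 1 lower (7.14%), where 2.33% of all probes were called, 1.6% higher and 0.734% lower. Leaving out 1 array lowered the second count to 1 or 0 in 19 of 24 cases. At an unadjusted p under 0.05 from limma there were 9 of 28 (32.1%) after 6.7 Gy and 12 of 28 (42.9%) after 7.4 Gy. Over all probes these shares were 22.9% and 23.6%. Of the 9 and 12 genes, 1 and 4 also passed 2-fold. The list medians were 0.14 and 0.11, while both medians over all tested probes, given above, were negative. The lower gene in both groups was ALDH1L2, a mitochondrial folate enzyme. Its control signals were 0.25, -0.58, 0.12 and -0.79, and its day 4 signals were -1.35, -1.78, -1.38 and -3.30 after 6.7 Gy and -2.59, -1.39, -1.73 and -2.01 after 7.4 Gy, a log2 change of -1.70 (adjusted p = 0.019) and -1.68 (adjusted p = 0.011). The higher gene was the lipoprotein receptor VLDLR (1.40, adjusted p = 0.0495), whose other probes changed by between 0.00 and 1.34 and were not called.

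The mRNAs of the 2 transcription factors that act on GDF15 in this pathway were not called. ATF4 had a log2 change of 0.15 and 0.02 on day 4, and DDIT3 of -0.06 and -0.34 (adjusted p = 0.81 and 0.10). ATF4 is controlled largely at translation, which arrays do not measure. ATF3 changed by -0.24 and -0.14, with controls from 1.19 to 3.97. TRIB3, a target of ATF4 and CHOP, changed by 0.85 and 1.01 by its brightest probe (adjusted p = 0.27 and 0.19). Its other probe went the other way, by -0.61 and -0.72 (adjusted p = 0.61 and 0.58). ASNS, the asparagine synthetase gene, changed by 0.87 and 0.98 (adjusted p = 0.16 and 0.099). For TRIB3 the day 4 animals of both doses overlapped the controls, and for ASNS those of the lower dose did, while its animals of the higher dose, from 1.08 to 1.44, lay just above the highest control at 1.05. On days 7 and 12 limma called 0 of the 28 genes in each of the 4 groups, and 3 to 8 had an unadjusted p under 0.05, where 8.13% to 13.4% of all probes did, of which 1 or 2 also passed 2-fold. DDIT3 on day 12 after 6.7 Gy changed by 0.78 (adjusted p = 0.045), which is below the fold limit. ALDH1L2 was higher on day 7 than on day 4, by 1.70 at 6.7 Gy and 1.52 at 7.4 Gy (adjusted p = 0.030 and 0.026).

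**Figure D4:**
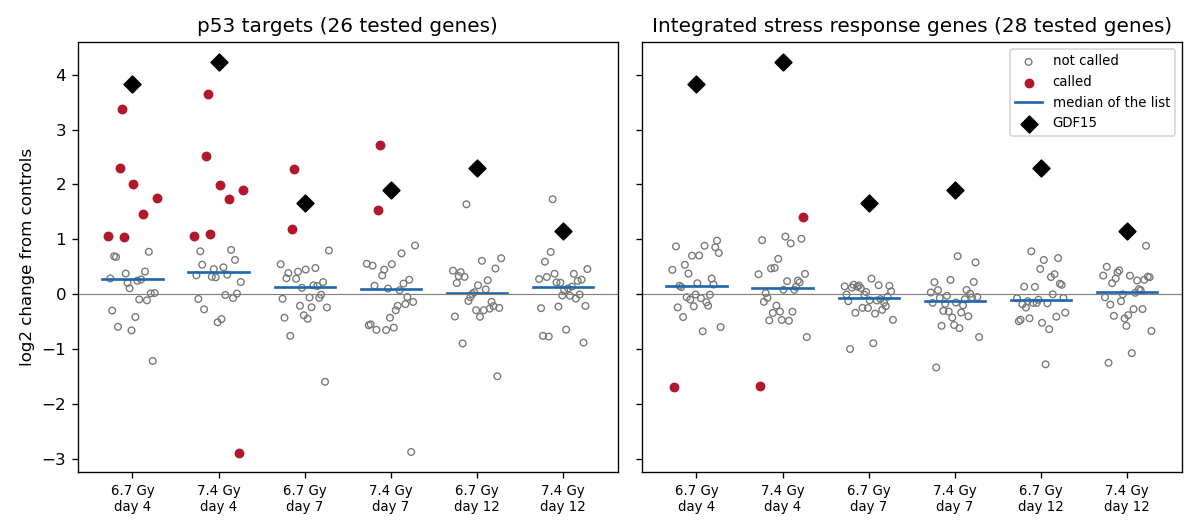
Log2 change from the controls (y axis) of each tested p53 target (left, 26 genes) and integrated stress response gene (right, 28 genes) in the 6 irradiated groups (x axis), with called genes filled, the list median as a line and GDF15 as a diamond. Called genes above 1 are on the left on days 4 and 7, while on the right 1 gene (VLDLR) is called above 0, and the GDF15 diamond lies above the whole of both lists on day 4.

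Of 23 further transcription factors with known or proposed action on the GDF15 promoter, 21 were tested. On day 4, EGR1, an immediate early factor, was called at both doses, as 1 of 21 after 6.7 Gy and 1 of 3 called after 7.4 Gy, where 0.978% and 2.33% of all tested probes were called. Its control signals were -4.48, -5.27, -4.99 and -5.14, and its day 4 signals were -3.52, -3.18, -4.32 and -2.74 after 6.7 Gy and -3.43, -3.88, -2.99 and -3.74 after 7.4 Gy, all above every control. The log2 change was 1.53 (adjusted p = 0.0037) and 1.46 (adjusted p = 0.0031). After 7.4 Gy KLF5, a factor of the crypt epithelium, was lower (-1.14, adjusted p = 4.3e-04) and MITF was higher (1.09, adjusted p = 0.034; its other probe 0.64, not called). On days 7 and 12 limma called 0 of the 21 in each of the 4 groups, with 3 to 6 at an unadjusted p under 0.05, where 8.13% to 13.4% of all probes had one, and at most 2 of these past 2-fold. From day 4 to day 7 EGR1 fell by 1.37 at 6.7 Gy (adjusted p = 0.019), and at 7.4 Gy the difference was -0.81 (adjusted p = 0.083). The 2 differences were not compared by a test.

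GFRAL, the GDF15 receptor of the hindbrain, had signals between -8.12 and -3.77, near the background. It was well above background on all 4 arrays of the controls and of day 4 after 7.4 Gy, but on 2 of 4 in day 4 after 6.7 Gy, and it changed by -0.33 and 0.06 on day 4 (adjusted p = 0.82 and 0.98). The RET probe was above background on 1 or 2 arrays of each group and was not tested. FURIN, whose product cuts the GDF15 precursor, changed by -0.19 and -0.30 (adjusted p = 0.45 and 0.23). Of the 17 listed genes of the receptor, its relatives and processing, 11 were tested and limma called 0 in each of the 6 groups, with 3 and 4 at an unadjusted p under 0.05 alone on day 4, where 22.9% and 23.6% of all probes had one (6.7 and 7.4 Gy), and 0 or 1 in the other groups.

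Of 32 other listed ligands of the TGF-β superfamily, 21 were tested. On day 4 after 6.7 Gy 1 was higher and 1 lower, where 0.595% of all tested probes were higher and 0.382% lower. After 7.4 Gy 3 were higher and 1 lower, where 1.6% of all probes were higher and 0.734% lower. BMP7 had control signals of -1.63, -2.26, -2.49 and -2.61 and day 4 signals of 0.12, -0.33, -1.05 and 0.19 after 6.7 Gy and -0.07, -1.67, -0.92 and -0.99 after 7.4 Gy. Its log2 change was 1.98 (adjusted p = 0.0057) and 1.34 (adjusted p = 0.029), and 1 animal of the higher dose overlapped the controls. BMP3, a BMP antagonist, fell by 1.56 and 1.59 (adjusted p = 0.029 and 0.015) from controls that spread from -3.61 to -1.48. TGFB3 (1.26, adjusted p = 0.016) and the activin subunit gene INHBB (2.39, adjusted p = 0.013) were higher after 7.4 Gy. The INHBB probe was above background in 2 of the 4 controls. On day 7 after 7.4 Gy BMP7 (1.53) and BMP3 (-1.55) were called again, where 0.114% of all probes were higher and 0.454% lower, and the other BMP7 probe was not called (1.54, adjusted p = 0.077). In the other 3 groups of days 7 and 12 limma called 0 of the 21, with 2 to 5 at an unadjusted p under 0.05 alone, where 8.13% to 9.36% of all probes had one. Of 14 tested SMAD signalling targets and inhibitors, the co-receptor gene TGFBR3 was called, on day 4 after 7.4 Gy (1.41, adjusted p = 0.0021). Among 12 tested cytokines and hormones of stress and illness, limma called 0 in all 6 groups, with 2 or 3 in each at an unadjusted p under 0.05 alone, where 8.13% to 23.6% of all probes had one. FGF21, another stress hormone, changed by -0.15 and -0.03 on day 4, IL6 by -0.86 and -0.85 (adjusted p = 0.12 and 0.097), and MIF by 0.96 (adjusted p = 0.0040) and 0.65, below the fold limit.

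Over all 24 arrays, the 10 genes of 14241 whose signals were most like GDF15 by Pearson r were ZMAT3 (0.914), HSPA4L (0.909), LOC721175 (0.908), LCN15 (0.895), C7 (0.892), CH25H (0.891), LOC700580 (0.891), EPHB3 (0.889), ARID5B (0.889) and ALDH1A2 (0.882). The median r over all genes was -0.07 and the 99th percentile 0.742. These values describe a likeness over arrays that fall into groups and share irradiation, slide positions and tissue, and have no test. The 10 genes changed from the controls by between 0.99 and 7.10 on day 4, where GDF15 changed by 3.83 and 4.23, and LCN15, a lipocalin, was the member of the 10 with larger changes than GDF15 (5.80 and 7.10). ZMAT3 is the member of the 10 that is also in the p53 list.

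Among animals of the same group, no probe passed the test of a relation to GDF15. With 1 mean for each group and the GDF15 signal as a covariate, limma called 0 of 36109 probes (0%) at an adjusted p under 0.05, and 2782 (7.7%) had an unadjusted p under 0.05. The smallest adjusted p was 0.41. Of the p53 targets, 14 of 26 had a positive correlation of deviations with GDF15 (median r 0.00), and of the integrated stress response genes 15 of 28 (median r 0.05). ZMAT3, most like GDF15 over all arrays, had an r of 0.01 within groups.

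The deviations of 10 genes from their group means are given against those of GDF15 over the 24 animals, from a family of 11 relations (BBC3 had no named probe). EGR1 had a Pearson r of 0.54 (permutation p = 0.019 within groups, two-sided) and a Spearman rho of 0.43 (permutation p = 0.065), and its adjusted p over all probes was 0.63. Without the 2 animals farthest from the median GDF15 signal, replicate 3 of day 4 after 7.4 Gy and replicate 4 of day 4 after 6.7 Gy, r was 0.38 (permutation p = 0.14). Without replicate 3 of day 4 after 6.7 Gy r was 0.37 (permutation p = 0.10). The relation thus depended on a few animals. FURIN had an r of -0.40 (permutation p = 0.076) and a rho of -0.38 (permutation p = 0.10), and ASNS an r of 0.33 (permutation p = 0.20) and a rho of 0.34 (permutation p = 0.17). For the other 7 genes r lay between -0.13 (DDIT3) and 0.20 (TRIB3), with permutation p-values from 0.44 to 0.92. With the slide as a block, r was -0.61 for FURIN (permutation p = 0.016) and 0.47 for the brighter TRIB3 probe (permutation p = 0.0064). EDA2R, called higher than in the controls on days 4 and 7 at both doses, had an r of -0.10 within groups (permutation p = 0.65). CDKN1A had an r of -0.09 (permutation p = 0.68). The brighter MDM2 probe had -0.10 (permutation p = 0.66) and the dimmer one 0.15 (permutation p = 0.62). The 10 adjusted p-values over all probes were 0.63 or higher.

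**Figure D5:**
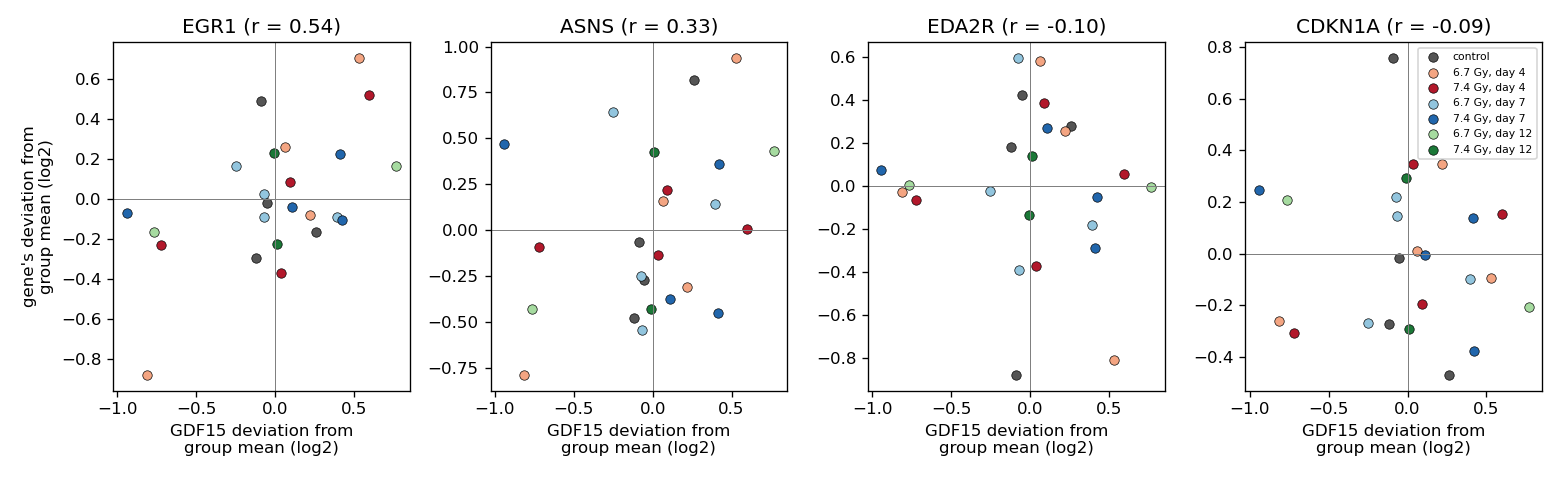
Deviation of EGR1, ASNS, EDA2R and CDKN1A (y axes, log2) from the group mean against that of GDF15 (x axes, log2), with 1 point for each of the 24 animals, coloured by group, and Pearson r in the panel titles. EGR1 (r = 0.54) shows a slope carried by a few day 4 animals at both ends, and EDA2R (r = -0.10) and CDKN1A (r = -0.09) show none that passed the permutation test.

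Among animals of the same group, the deviations of GDF15 had an r of -0.46 with those of the share of probes above background (n = 24). For the 17 summed marker lists r lay between -0.49 (enterocytes) and 0.47 (B cells), with 0.43 for Paneth cells, 0.40 for crypt stem and progenitor cells, -0.39 for goblet cells and 0.33 for neutrophils. Their part in the within-group relations was not tested.

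On chromosome 19, 10 annotated genes lie within 100 kb of GDF15, and 6 of them had a probe, all tested (LSM4, PGPEP1, LRRC25, SSBP4, ISYNA1 and ELL). On day 4 their log2 changes lay between -0.19 (LRRC25) and 0.36 (SSBP4) after 6.7 Gy and between -0.15 (PGPEP1) and 0.54 (SSBP4, adjusted p = 0.038) after 7.4 Gy, so that none reached the fold limit there.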

How the data were processed

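Total RNA of 24 ilea was labelled and hybridized by the authors, and scanned into background-subtracted intensities, per the file headers by Agilent Feature Extraction 11.0.1.1. The authors' deposited raw table holds the same intensities, and their deposited log2 table was scaled to the 75th percentile of each array and centred on each probe's median. The array design uses build rheMac2; for names and neighbours a RefSeq gene table (assembly T2T-MMU8v2.0) was used, and no coordinates are given. Values were computed again as log2 of the intensity minus the array's 75th percentile. Outlier spots were left out where another spot remained. A probe was tested where all arrays of some group had it well above background (36110 of 43603) with limma 3.58.1 in R 4.3.3, in a single fit of 24 arrays with 7 group means, and a gene is its brightest tested probe. A gene was called at an adjusted p under 0.05 and a fold change of 2. Correlations used 100000 permutations within groups. The test was checked on simulated data. GDF15 and the gene lists were chosen with earlier results of these data known. Named genes are the 12 set against GDF15 (1 of them is not reported here), GFRAL and RET, the called list genes (up to 4 each way per list and comparison with the controls), the 10 most like GDF15, the 5 highest and 5 lowest within groups, and the neighbours. RPS27L, BAX, FAS, GADD45A, FGF21, IL6, MIF, the cell type markers and the dimmer MDM2 probe were named after their values were seen. The labels' protocol text gives another last day than the titles and day field, and day 12 was used. Nothing in the labels ties the replicate numbers of different groups to shared animals. The number of animals, 2 in each day 12 group, limits the precision. Alternatives were other background corrections and normalizations, slide, position and replicate number in the fit, other filters, variance models, probe rules and tests, and leaving out each array. The background medians used for normexp came with spot medians, since spot means were not in the files used here.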

Additional observations from a re-analysis of the deposited data

Results flagged for a closer look

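In 315 groups of 4 animals over 63 genes and probes, the highest or lowest animal was tested for its distance from the other 3, and 18 stood apart, where chance alone flags about 1 group in 20. The values are log2 signals. GDF15 itself had no such animal in any group. On day 7 after 7.4-Gy TBI they were BAX in replicate 1 (2.23, the others 1.83 to 1.88), ZMAT3 in replicate 2 (-3.52, the others -3.14 to -3.10), MITF in replicate 4 (-1.98, the others -2.49 to -2.41), COX1 in replicate 3 (7.21, the others 6.12 to 6.17), LRRC25 in replicate 1 (-0.37, the others -0.74 to -0.69) and the dimmer MDM2 probe in replicate 1 (-1.85, the others -2.46 to -2.39). On day 7 after 6.7-Gy TBI they were INHBB in replicate 3 (-7.403, the others -6.18 to -5.97), FGF21 in replicate 3 (-1.21, the others -1.47 to -1.45) and C7 in replicate 4 (4.13, the others 3.70 to 3.77). Among the day 4 animals of 7.4 Gy they were BMP3 in replicate 2 (-3.85, the others -4.27 to -4.24) and VIL1 in replicate 1 (2.10, the others 2.63 to 2.72), and among those of 6.7 Gy ANPEP (3.83, the others 6.46 to 6.93) and PGPEP1 (-2.48, the others -3.02 to -2.99) in replicate 4. Among the controls they were MITF (-4.01, the others -2.64 to -2.62) and TGFB3 (-5.64, the others -4.15 to -3.99) in replicate 1, INHBB in replicate 2 (-8.11, the others -6.59 to -6.35), FGF21 in replicate 3 (-1.06, the others -1.50 to -1.45) and NUP88 in replicate 4 (0.93, the others 0.65 to 0.68).

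Day 7 was compared with day 4 at each dose for 62 genes and probes other than GDF15, nearly all of the named ones but GFRAL, RET and FABP2. Of these, 36 of 124 differences had an adjusted p under 0.05 from limma over all probes, some of them below the 2-fold limit. Over all tested probes 0.354% at 6.7 Gy and 0.942% at 7.4 Gy passed both that adjusted p and 2-fold. The share at the adjusted p alone is not given here. Many of the 62 were named for changes seen on the same arrays, so their count is a description. The values are log2 differences, day 7 minus day 4. Of the p53 targets at 6.7 Gy these were FAS -0.76 (adjusted p = 0.037), ZMAT3 -0.96 (0.0070), DDB2 -1.11 (0.023), PLK2 -1.56 (0.0053), RPS27L -0.98 (0.025) and the dimmer MDM2 probe -0.996 (0.0070). At 7.4 Gy they were BAX -0.50 (0.044), FAS -0.76 (0.018), ZMAT3 -1.01 (0.0015), DDB2 -0.98 (0.017), PLK2 -1.45 (0.0031), RPS27L -0.98 (0.0096), GADD45A -1.11 (0.0087) and the dimmer MDM2 probe -1.25 (7.2e-04). All of these were lower on day 7, as GDF15 was. All but GADD45A had been called higher on day 4 against the controls, and ZMAT3 was also named for its likeness to GDF15. The same day 4 arrays enter these differences, so the choice of genes favours a fall.

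Genes outside the p53 list went both ways. At 6.7 Gy EGR1 (-1.37, adjusted p = 0.019), LCN15 (-2.27, 0.0497), CH25H (-1.33, 0.0052), LOC700580 (-0.90, 0.020) and ALDH1A2 (-1.21, 0.0090) were lower on day 7, and ALDH1L2 (1.70, 0.030), KLF5 (0.75, 0.029), VIL1 (1.19, 0.0084) and ALDH2 (0.93, 0.013) were higher. At 7.4 Gy TGFBR3 (-0.95, adjusted p = 0.031), HSPA4L (-0.90, 0.039), LOC721175 (-1.06, 0.0060), LCN15 (-3.96, 0.0011), C7 (-0.78, 0.035), CH25H (-1.14, 0.0038), ARID5B (-0.60, 0.041), LRRC25 (-0.66, 0.027), ELL (-0.69, 0.041) and ALDH1A2 (-0.89, 0.019) were lower, and ALDH1L2 (1.52, 0.026), VIL1 (1.004, 0.0087) and KLF5 (1.15, 0.0011) were higher. HSPA4L, LOC721175, LCN15, C7, CH25H, LOC700580, ARID5B and ALDH1A2 were named for their likeness to GDF15 over the same arrays, so their direction is not independent of it.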

How the results depend on the processing

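The GDF15 change kept its direction in every group and setting. On day 12 after 7.4-Gy TBI it was 1.13 with normexp background correction, 0.87 with the slide as a block and 1.07 with the replicate block. With array position (1 to 4) in the fit as a straight line, it was 4.79 on day 4 after 7.4 Gy, 2.78 and 3.30 on day 7 and 3.98 and 2.83 on day 12 (6.7 and 7.4 Gy). That slope comes from the 2 groups that span 2 positions, day 4 after 6.7 Gy and day 7 after 7.4 Gy, and no group links positions 2 and 3, so the values of days 7 and 12 extend the line beyond what the arrays measure. With position, 0 p53 targets were called on day 7 at either dose and 0 integrated stress response genes on day 4 at either dose. The latter count on day 4 after 7.4 Gy was 1 with the percentile over probes above background, with the slide block, with the mean of a gene's probes and without the filter. With the methods' t-test after Benjamini-Hochberg, 0 p53 targets were called on day 4 after 6.7 Gy and on day 7 at both doses, and 0 integrated stress response genes on day 4 at both doses. At the unadjusted threshold and 2-fold it called 7, 2 and 2, and 1 and 2. Over all probes it called 0, 125, 2, 0, 0 and 0 in the 6 groups after adjustment and 663, 1083, 370, 499, 367 and 383 before. With the slide block the within-group r was 0.47 for the brighter TRIB3 probe (permutation p = 0.0064) and -0.61 for FURIN (permutation p = 0.016). Counting every alternative and left-out array, 80 of 92 GDF15 changes moved by less than the spread between animals, 206 of 216 p53 counts and 186 of 216 integrated stress response counts stayed within 1.5 times the reported count, and 365 of 374 correlations kept their side of p = 0.05. The causes were not tested.

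Leaving out 1 array at a time, the GDF15 change ranged from 3.65 to 4.10 and from 4.04 to 4.48 on day 4, from 1.53 to 1.75 and from 1.77 to 2.22 on day 7, and from 1.54 to 3.07 and from 1.11 to 1.24 on day 12 (6.7 and 7.4 Gy). The p53 count ranged from 5 to 7 and 6 to 8, from 1 to 2 and 2 to 3, and from 0 to 1 at both doses. The integrated stress response count ranged from 0 to 1 and 0 to 3 on day 4, from 0 to 0 and 0 to 1 on day 7, and was 0 on day 12. It was 0 on day 4 after 6.7 Gy without control replicate 1 or 3, and 0 on day 4 after 7.4 Gy without replicate 1 of that group. The p53 count of day 7 after 6.7 Gy was 1 without control replicate 1 or without replicate 1 or 4 of its own group. Without replicate 2 of day 4 after 6.7 Gy 1 probe was associated with GDF15 within groups, beside 0 otherwise. The within-group r ranged from 0.37 to 0.59 for EGR1, from 0.18 to 0.54 for ASNS and from -0.51 to -0.31 for FURIN. With 1 array left in a day 12 group, its spread is taken from the other groups.

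Replicate numbers were not treated as pairs: the deviations of arrays with the same number in different groups had a median r of 0.030 (62 pairs, from -0.26 to 0.36), beside -0.011 for 182 pairs of different numbers. With the replicate block the p53 counts on day 4 were 7 and 8, the integrated stress response counts 1 and 2, 0 probes were associated with GDF15 and EGR1 had an r of 0.56 (permutation p = 0.021). The 2 animals in each day 12 group limit what can be shown there.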

Other observations

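Within groups, the genes with the highest correlation of deviations with GDF15 over the 24 animals were NAA15 (r = 0.75), SRSF2 (0.75), LOC722161 (0.75), NUP88 (0.74) and NFKBIZ (0.74), and those with the lowest were ALDH2 (-0.80), ATG2A (-0.78), FTH1 (-0.77), CRYBB3 (-0.77) and COX1 (-0.76). NAA15 encodes a subunit of an N-terminal acetyltransferase, SRSF2 a splicing factor, NUP88 a nuclear pore protein, NFKBIZ an atypical NF-κB inhibitor, ALDH2 the mitochondrial aldehyde dehydrogenase and FTH1 the ferritin heavy chain. These are the extremes of 14241 genes, each has an adjusted p over all probes of 0.63 from limma, and they are a description. Over all 24 arrays r was -0.793 for FTH1, -0.732 for ATG2A, -0.723 for COX1 and -0.685 for ALDH2, and 0.171 for NAA15 and 0.129 for NFKBIZ. These values contain the deviations by which the genes were chosen, which partly fixes their sign.

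The second probe of ALDH2 had a negative slope on GDF15 too (-0.48, beside -0.35 for the brighter one, in log2 units per log2 unit of GDF15).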
